A study of Mus musculus with 12 samples.

Results

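The hearts in which every element of the Mef2d activation system was present were compared with plain hearts, 3 libraries against 3. The activated hearts (TG_AAV, replicates 1 to 3) came from mice that carry the Myh6-dCas9VPR transgene and received the vector AAV9 TRISPR Mef2d. The plain hearts (WT_saline, replicates 1 to 3) came from wild-type mice given saline. Among the 12 libraries of the study were also wild-type mice given the vector (WT_AAV, 3 libraries) and transgenic mice given saline (TG_saline, 3 libraries). Per the labels all mice were C57BL/6, the tissue was the ventricles, taken at 8 weeks of age, and total RNA was sequenced. The comparison runs over genes: of 24390 gene symbols in the deposited table of normalized counts, 12989 had a mean of at least 10 over these 6 libraries and were tested.

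dCas9 is a form of the CRISPR nuclease Cas9 that binds DNA at the site matched by a guide RNA but does not cut it, and VPR is a transcription activator fused to it. The Myh6 promoter restricts the fusion largely to heart muscle cells, and AAV9 is an adeno-associated virus serotype that reaches the heart well and is understood here to deliver the guide RNAs. Mef2d belongs to the MEF2 family of DNA-binding factors, which switch on muscle genes and are held in check by class IIa histone deacetylases until calcium signals release them. In the adult heart MEF2D is known as a mediator of the response to overload, in which fetal genes return and genes of contraction and energy supply change. An activated heart differs from a plain heart in both the transgene and the vector, and their effects cannot be told apart in this comparison alone; the values of the other groups are given beside the results they touch. In bulk tissue, fewer cells of a type and less RNA per cell cannot be told apart either.

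The plain libraries held 10784276, 10233281 and 10979333 reads assigned to genes and the activated libraries 14911986, 10966788 and 13160531. Across genes, the lowest Pearson correlation of log2 values within either group was 0.973, between plain libraries 2 and 3. It was 0.980 between plain libraries 1 and 3 and 0.981 between 1 and 2, so it hardly separates libraries 2 and 3. The chi-square of reads per degree of freedom was 19.2 and 27.1 for plain library 3 with libraries 1 and 2, against 8.85 between those. In plain library 3 the ribosomal transcript Rn45s took 1.84% of reads. Activated library 1 held 1505 normalized counts of the atrial light chain Myl7, against 1.15 to 19.1 in the other 5 libraries, so it carried atrial transcripts that the ventricular label does not give. Outside these 6, Myl7 was also high in WT_AAV 1 and 3 (2042 and 1693) and TG_saline 1 and 3 (728 and 258). In WT_AAV 2 and TG_saline 2 it was at 3.04 and 4.42. Rn45s also moved with the groups, at 0.770% to 1.84% of reads in the plain and 0.478% to 0.545% in the activated hearts, and its part in the results was not tested. By Xist and the Y-linked gene Ddx3y the plain libraries were female, male and female and the activated libraries male, male and female. The summed level of the 10 ventricular muscle markers was 853104 to 960308 in the plain hearts and 686829 to 748696 in the activated hearts. This sum cannot tell whether atrial tissue was present: activated library 1, with its high Myl7, had 720901.

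The stretch of DNA upstream of 4 genes on which the results turn is shown first: Mef2d, the target; Ryr1, the calcium channel with a very large rise below; Nppb, the fetal peptide gene; and Xirp2, a known MEF2 target. Each run is the 250 bases before the annotated start, 5′ to 3′ on the gene's own strand, from RefSeq on GRCm38.p6, which is another build than the mm9 named for the deposited table. Capitals mark matches of 2 letter patterns searched on both strands, TATAAA (the TATA box) and CTANNNNTAG. The latter is a palindrome with any 4 letters at its centre, and stands only loosely for the MEF2 binding site. Mef2d lies at chr3:88142122-88142371 on the plus strand, Ryr1 at chr7:29125152-29125401 on the minus strand, Nppb at chr4:147985650-147985899 on the plus strand and Xirp2 at chr2:67445752-67446001 on the plus strand.
Mef2d: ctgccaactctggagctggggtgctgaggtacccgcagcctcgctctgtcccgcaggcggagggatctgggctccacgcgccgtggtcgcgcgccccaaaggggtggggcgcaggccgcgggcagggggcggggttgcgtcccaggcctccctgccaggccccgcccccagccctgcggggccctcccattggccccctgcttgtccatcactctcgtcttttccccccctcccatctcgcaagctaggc
Ryr1: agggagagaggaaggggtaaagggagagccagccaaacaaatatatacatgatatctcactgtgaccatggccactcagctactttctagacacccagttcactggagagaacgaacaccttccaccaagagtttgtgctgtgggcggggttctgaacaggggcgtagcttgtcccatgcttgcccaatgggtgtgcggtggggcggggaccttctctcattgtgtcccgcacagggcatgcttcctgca
Nppb: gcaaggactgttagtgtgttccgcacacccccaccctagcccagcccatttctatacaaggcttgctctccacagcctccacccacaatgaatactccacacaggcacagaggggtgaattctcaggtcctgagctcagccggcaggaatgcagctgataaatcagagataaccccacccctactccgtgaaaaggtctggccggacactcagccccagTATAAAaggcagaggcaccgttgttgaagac
Xirp2: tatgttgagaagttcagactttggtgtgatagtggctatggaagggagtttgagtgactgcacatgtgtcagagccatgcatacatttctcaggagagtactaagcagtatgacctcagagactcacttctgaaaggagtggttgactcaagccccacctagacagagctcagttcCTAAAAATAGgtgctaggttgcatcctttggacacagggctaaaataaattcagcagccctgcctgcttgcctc

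The Mef2d run holds neither pattern and is 73.2% G and C, the Nppb run has TATAAA 31 bases before the start, and the Xirp2 run has CTAAAAATAG 74 bases before it. Over all 27025 promoters of the same length, 3.23% held CTANNNNTAG and 13.0% held TATAAA. Among promoters of tested genes CTANNNNTAG was found in 2.59% of those of genes that rose (27 of 1044) and 2.42% of those of genes that fell (19 of 785), beside 2.82% of the 9816 matched. Since its centre is free, these shares do not measure how often MEF2 sites occur. TATAAA was found in 6.32% and 6.75%, beside 6.40%. NGG, the letters next to which Cas9 binds, occurred 79 times over both strands of the Mef2d run, overlapping matches included, and 46 times in that of Ryr1; the median was 39 over all promoters and 49 over those of tested genes. A match describes the letters of the window and is not a binding site.

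Mef2d RNA was 2.00-fold higher in the activated hearts. The gene had 999, 877 and 1178 normalized counts in plain hearts 1 to 3 (replicate order is kept throughout) and 1989, 2231 and 1897 in activated hearts 1 to 3. Every activated heart lay above every plain heart. The means were 1018 ± 151 (SD, n = 3) and 2039 ± 173 (SD, n = 3), a log2 difference of 1.01 with a standard error (SE) of 0.11 and a limma adjusted p of 4.81e-05. Adjusted p-values are Benjamini-Hochberg values over all 12989 genes, and a gene is called changed below 0.05. Permuting the 6 Mef2d values alone (exact, two-sided) gave p = 0.1, the smallest that 3 against 3 allows. WT_AAV hearts had a mean of 1069 and TG_saline hearts 839, and neither differed from the plain hearts by the test.

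Mef2d alone rose in its family. Mef2a had 4059, 4384 and 3343 counts in the plain hearts and 3028, 2920 and 2834 in the activated hearts, without overlap. It fell (log2 -0.42, SE 0.12, limma adjusted p = 0.0308), but the call was lost on leaving out plain heart 1 or 2 or any activated heart, with an adjusted p of up to 0.103, and under total-read scaling. Mef2c, the family member needed for heart formation, had 1973, 1948 and 1500 against 1661, 1527 and 1551 counts, which overlap (log2 -0.18, limma adjusted p = 0.245). The filter left out Mef2b, with at most 1.11 counts in any of the 6 libraries. Of the 4 class IIa histone deacetylases, which bind and silence MEF2 factors, Hdac4 fell: it had 741, 802 and 1098 counts in the plain hearts and 647, 646 and 500 in the activated hearts (log2 -0.55, SE 0.15, limma adjusted p = 0.0262). That call was lost without plain heart 3 or activated heart 3 (adjusted p up to 0.117). Hdac5 (0.25), Hdac7 (-0.37) and Hdac9 (-0.27) did not pass the test.

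Across the transcriptome 2453 genes were called, 18.9% of those tested: 1360 rose (10.5%) and 1093 fell (8.41%). Changes of over 2-fold were made up of 343 rises and 179 falls, and those of over 4-fold of 87 rises and 30 falls. Without activated heart 1 or 3 the calls numbered 1575 and 1509. The 3 activated values lay outside the plain range for 4994 genes (38.4%), above it for 2667 (20.5%) and below it for 2327 (17.9%). Of the 2453 called genes 2419 lay outside that range, so separate groups add little to a call. The median change over all tested genes was -0.0055. Scaling by total reads, an alternative chosen after seeing the data, moved that median to 0.13 and gave 2727 genes that rose and 619 that fell. The direction of small changes therefore depends on the scaling. Highly expressed genes fell more often: of the 461 genes with a mean of at least 3000 counts, 28.2% fell and 8.03% rose, with a median of -0.14.

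**Figure D1:**
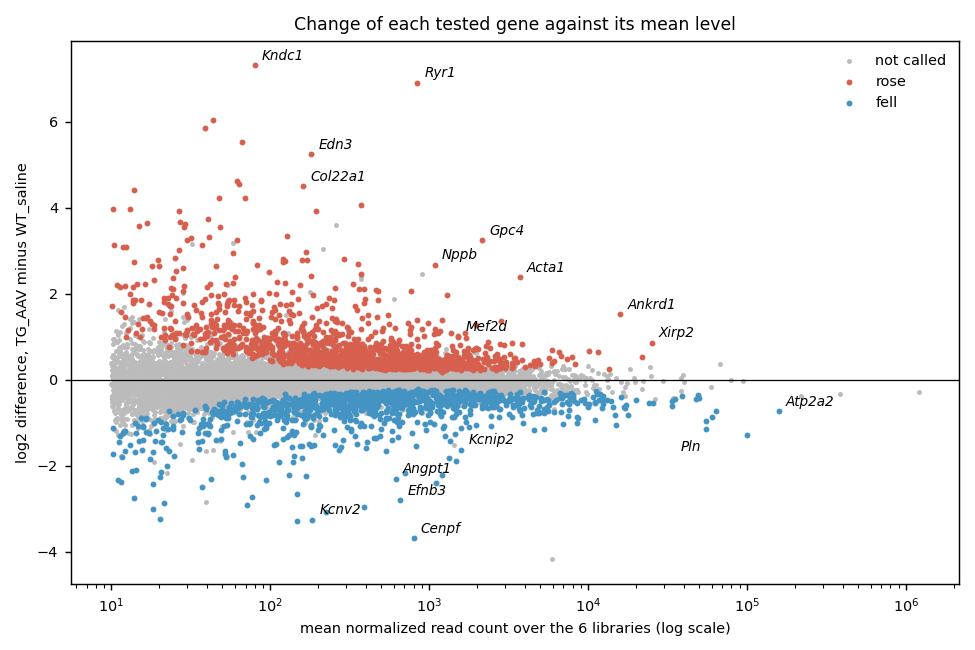
Log2 difference between activated and plain hearts (TG_AAV minus WT_saline, y axis) against the mean normalized count over the 6 libraries (x axis, log scale), 1 point per tested gene, with genes that rose and genes that fell in colour. Of 12989 genes, 1360 rose and 1093 fell, and among genes with a mean of at least 3000 counts the coloured points lie mostly below 0.

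The largest rises were of genes almost silent in plain hearts. Kndc1, Atp1b4, B3gat1 and Plekhg6 passed the filter only through their activated values, so their low plain level is partly a matter of selection. Kndc1, a neuronal guanine nucleotide exchange factor of the Ras family, had no read in any plain heart and 123, 183 and 175 counts in the activated hearts (limma adjusted p = 6.03e-06). Its ratio was 142 if 3 reads are taken as the floor of the plain group. On the 0 against 572 reads counted, the lower 95% limit of the ratio was 115 (counting error only). Ryr1, which releases calcium in skeletal muscle, had 6.66, 14.9 and 20.6 counts in the plain hearts and 1995, 1593 and 1442 in the activated hearts. On reads the ratio was 120 (38 against 6146 reads, 95% interval 87.4 to 170, counting error only), and the log2 difference 6.91 (SE 0.40, limma adjusted p = 5.58e-07). Every activated heart lay far above every plain heart for both genes.

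Atp1b4, a muscle protein related to the sodium pump's beta subunit, had 0, 0 and 1.09 counts in the plain hearts against 99.2, 110 and 51.7 (limma adjusted p = 5.39e-05). That is 1 read against 311, a ratio of 231 with a counting interval of 41.1 to 9146. B3gat1, the glucuronyltransferase that makes the HNK-1 carbohydrate, had 0, 1.15 and 0 against 47.4, 99.6 and 83.5 (ratio 200, interval 35.7 to 7944; limma adjusted p = 4.03e-05). Plekhg6, a guanine nucleotide exchange factor, had 0, 0 and 1.09 against 19.0, 25.9 and 37.4 counts (ratio 73.5, interval 12.9 to 2931; limma adjusted p = 0.000792). These intervals are wide since the plain group held 1 read for each gene.

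Clstn3, a calsyntenin of synapses, rose by 5.54 (1.11, 2.29 and 2.17 against 135, 113 and 143 counts). Edn3, a ligand of endothelin receptors, had 5.55, 10.3 and 9.77 counts in the plain hearts and 365, 338 and 355 in the activated hearts (log2 5.25, SE 0.53, limma adjusted p = 4.2e-05). Col22a1, a collagen of muscle-tendon junctions, had 8.88, 17.2 and 13.0 against 314, 306 and 303 (log2 4.50, SE 0.31, limma adjusted p = 2.14e-06). The 3 activated values of each of these 3 genes were close together and above every plain value. The other genes among the 12 largest rises were Pacsin1 (log2 4.63), which bends membranes in endocytosis, Sypl2 (4.54), also called mitsugumin 29 and found at the skeletal muscle triad, Itpka (4.24), an inositol trisphosphate kinase, and Ccno (4.22), a cyclin of multiciliated cells. Pacsin1 was uneven in the plain hearts, with 0, 18.3 and 4.34 counts.

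The largest falls were of genes present in plain hearts, which the filter and the ranking by log2 change require. Their plain levels differed widely, from 70 reads over the plain group for Kcnq5 to 3973 for Cenpf. Cenpf, a kinetochore protein that in heart muscle is tied to the microtubules and T-tubules, had 1285, 1760 and 1388 counts in the plain hearts and 125, 176 and 66.0 in the activated hearts (log2 -3.68, SE 0.29, limma adjusted p = 7.14e-06), 12.1-fold lower. Its mean was 678 in TG_saline hearts and 1080 in WT_AAV hearts. Efnb3, a membrane-bound ligand of Eph receptors, had 1345, 1036 and 1074 against 155, 209 and 134 (log2 -2.80, SE 0.17, limma adjusted p = 5.58e-07), 6.92-fold lower. For both genes all activated values lay below all plain values.

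Aqp4, a water channel, had 192, 366 and 236 counts against 44.5, 39.9 and 8.75 (log2 -3.28, SE 0.44, limma adjusted p = 0.000281). Kcnv2, a silent potassium channel subunit, had 202, 270 and 534 against 35.0, 21.9 and 40.6 (log2 -3.25, SE 0.37, limma adjusted p = 7.92e-05). Lrrc4b, a synaptic adhesion protein, had 653, 301 and 260 against 43.0, 53.8 and 35.8 (log2 -3.06, SE 0.33, limma adjusted p = 5.98e-05). The groups were separate for all 3, as their selection required, with the widest plain spread in Kcnv2 and Lrrc4b. Abca4, a lipid transporter best known from the retina (log2 -2.73), Lrp1b, a lipoprotein receptor relative (-2.87), Cdh20, a cadherin (-3.01), and the predicted gene Gm10635 (-2.90) fell as well. Scn10a, a sodium channel of sensory neurons studied for its part in conduction, had 18.9, 59.5 and 31.5 counts against 0, 5.98 and 5.57 (log2 -3.25, SE 0.68, limma adjusted p = 0.0054). Kcnq5, a potassium channel of the M-current family, had 17.8, 8.02 and 51.0 against 0.729, 2.99 and 3.18 (log2 -2.75, SE 0.58, limma adjusted p = 0.00545); with plain heart 3 and activated heart 1 both left out its call was lost.

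**Figure D2:**
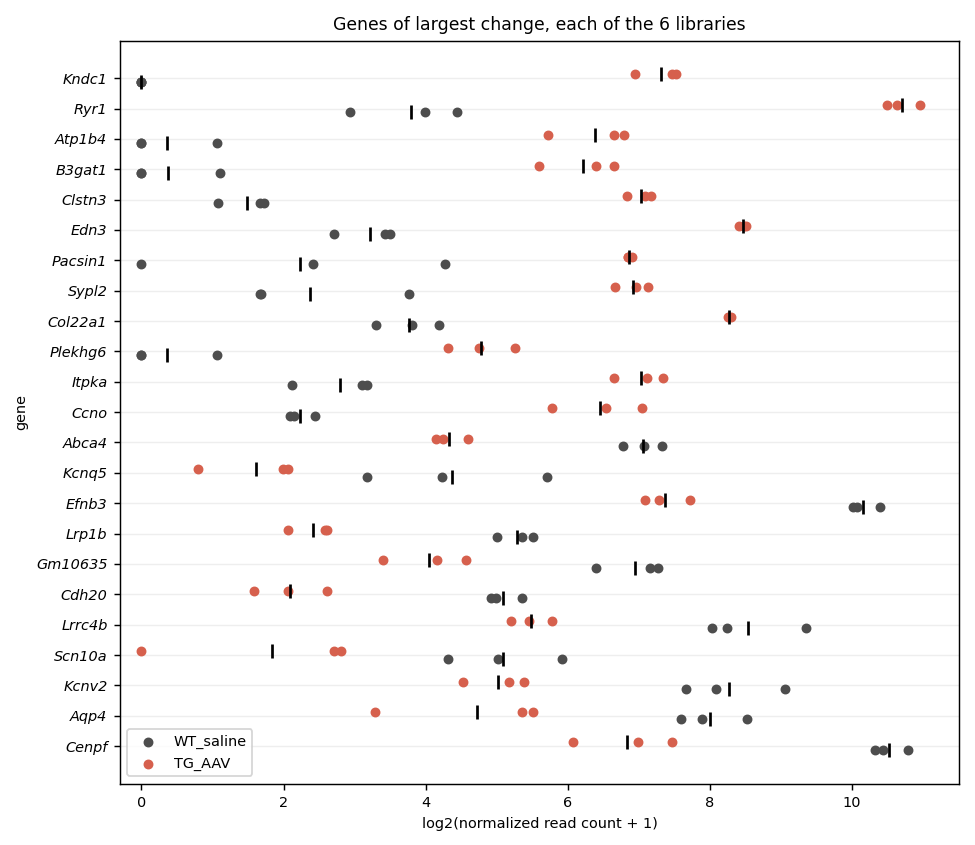
Genes with the largest log2 changes among those called, with log2(normalized count + 1) on the x axis, a point for each of the 3 plain and 3 activated hearts, and a tick at each group mean. In the upper genes the plain points sit near 0 and the activated points far to the right (Ryr1, 6.66 to 20.6 against 1442 to 1995 counts); in the lower genes the order is the reverse (Cenpf, 1285 to 1760 against 66.0 to 176 counts).

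The smallest adjusted p-values went to genes with little spread within each group. Gpc4, a heparan sulfate proteoglycan of the cell surface, had 420, 402 and 398 counts in the plain hearts and 3863, 4185 and 3590 in the activated hearts, 9.54-fold higher (log2 3.25, SE 0.09, limma adjusted p = 2.56e-10). Pdzd4, a PDZ domain protein, had 36.6, 35.5 and 53.2 against 702, 687 and 708 (log2 4.06, SE 0.16, limma adjusted p = 1.11e-08). Lrrcc1, a centrosome protein, had 199, 208 and 205 against 762, 742 and 729 (log2 1.86, SE 0.09, limma adjusted p = 1.56e-07). In each case the distance between the groups was many times the spread within them. Rab3il1, an exchange factor for Rab proteins, rose by 2.11 and Lix1l by 1.22. Among the falls of smallest p, Mov10l1, an RNA helicase with a heart-specific isoform, had 617, 640 and 540 against 229, 215 and 214 counts (log2 -1.44), and the centromere cohesion gene Sgol2a had 298, 270 and 273 against 102, 81.7 and 111 (log2 -1.51). Kcnip2, the accessory subunit of the transient outward potassium current, had 2616, 2380 and 2245 counts in the plain hearts and 809, 716 and 823 in the activated hearts (log2 -1.62, SE 0.12, limma adjusted p = 4.48e-06).

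**Figure D3:**
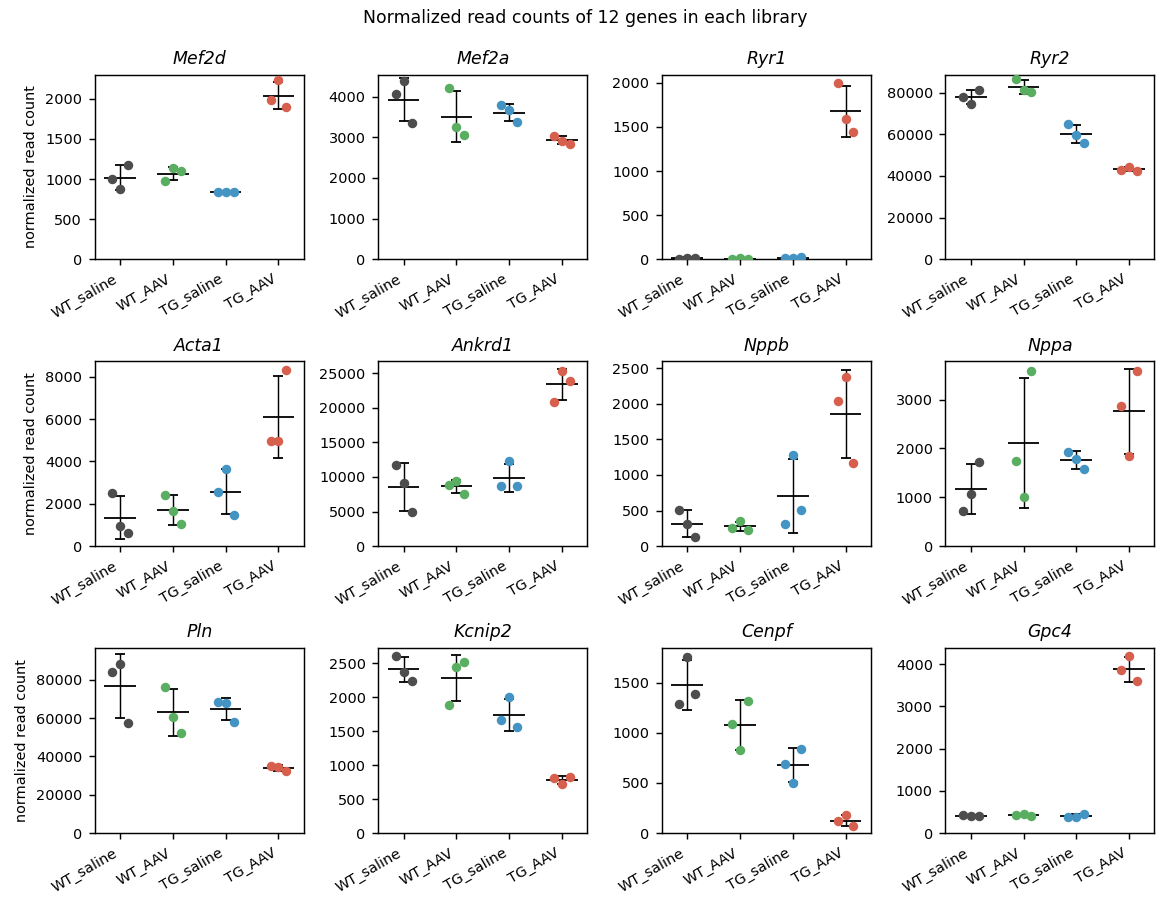
Normalized counts of 12 genes in all 12 libraries, by group (WT_saline, WT_AAV, TG_saline, TG_AAV), 1 point per library with the mean as a line and the SD as a bar, each panel on its own scale. The TG_AAV points of Mef2d (1897 to 2231) lie above the WT_saline points (877 to 1178), Gpc4 and Ryr1 are high in TG_AAV, and Kcnip2, Pln and Ryr2 are lower there than in WT_saline.

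Genes that overloaded and fetal hearts express were the group with the most members up. Of 19 tested members of the stress and fetal gene list 13 rose and 2 fell, with a median change of 1.09. The same list had a median of 0.05 in WT_AAV and 0.21 in TG_saline hearts against the same plain hearts. Ankrd1, a titin-binding stress protein, had 11742, 9153 and 4916 counts in the plain hearts and 20882, 25365 and 23883 in the activated hearts (log2 1.53, SE 0.25, limma adjusted p = 0.00102). Its relative Ankrd23 had 1831, 1783 and 1171 against 4124, 4686 and 3401 (log2 1.37). Both were lowest in plain heart 3, and no activated value reached the plain range. Acta1, skeletal alpha actin, which the fetal heart expresses, had 2490, 932 and 616 against 4979, 4976 and 8320 counts (log2 2.39, SE 0.46, limma adjusted p = 0.00314). The TG_saline hearts lay between (log2 1.09 over the plain hearts, limma adjusted p = 0.39), and against them the activated hearts did not pass the test (log2 1.30, limma adjusted p = 0.12). Reads of Acta1 can be shared with its near-identical paralogs, so its level is uncertain.

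Tnfrsf12a, the receptor of the cytokine TWEAK, had 182, 131 and 97.7 counts against 579, 729 and 446 (log2 2.11, SE 0.21, limma adjusted p = 4.3e-05). Rcan1, a calcineurin inhibitor that calcineurin itself switches on, had 718, 723 and 532 against 1642, 2365 and 1272 (log2 1.39, SE 0.19, limma adjusted p = 0.000274). Uchl1, a ubiquitin hydrolase, had 71.1, 48.1 and 65.1 against 208, 198 and 222 (log2 1.77, SE 0.15, limma adjusted p = 1.13e-05). Activated heart 2 was the highest of the 6 for Tnfrsf12a and Rcan1, and the groups of all 3 genes were separate. The members that fell were Fhl1 (log2 -1.02, 1133, 1167 and 1522 against 568, 624 and 673 counts) and Fhl2 (log2 -0.81), LIM proteins of the sarcomere. Myh7, the fetal myosin heavy chain, had 18852, 2043 and 23560 counts in the plain hearts and 15836, 18132 and 4161 in the activated hearts, which overlap fully (log2 0.13, limma adjusted p = 0.944). The libraries low in Myh7 were also those low in the skeletal myosin Myh2 (1.15 and 0.796 counts, against 944 to 1272 in the other 4).

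Among 15 tested genes of the natriuretic, endothelin and angiotensin systems 4 rose and 1 fell, with a median of -0.01, and 2 rose without plain heart 1. Nppb, the gene of brain natriuretic peptide, had 509, 308 and 136 counts against 2036, 2368 and 1172 (log2 2.68, SE 0.50, limma adjusted p = 0.00246). The TG_saline mean of Nppb was 702, and the activated hearts did not pass the test against that group (log2 1.60, limma adjusted p = 0.0776). Nppa, atrial natriuretic peptide, had 713, 1060 and 1717 against 2863, 1835 and 3574 counts (log2 1.28, limma adjusted p = 0.0379); the plain maximum came close to the activated minimum. The Nppa call was lost without plain heart 1 or 2, activated heart 1 or 3, or TG_saline 2 or 3, with an adjusted p of up to 0.146. Ace, the angiotensin converting enzyme, rose by 1.09 (630, 1221 and 860 against 1879, 1999 and 1684 counts; limma adjusted p = 0.0136, and 0.0622 without plain heart 1). Corin, the protease that activates the natriuretic peptides, fell by 0.51, a call lost without plain heart 2 or 3 or activated heart 1 or 3 (adjusted p up to 0.117). Edn1, the main cardiac endothelin, did not pass the test (log2 0.17, limma adjusted p = 0.536), while Edn3 had risen as given above.

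Several skeletal muscle isoforms rose in the activated hearts. Of 11 tested skeletal muscle markers 6 rose and 1 fell (median 0.50), and these counts were the same with each library left out in turn, while the median was 0.84 and 0.85 without plain hearts 1 and 3 and 0.99 without activated heart 3. Tnni1, slow skeletal troponin I, which the fetal heart also makes, had 2.22, 0 and 4.34 counts against 27.7, 29.9 and 36.6 (log2 3.64, SE 0.54, limma adjusted p = 0.000597). Casq1, the skeletal calsequestrin, had 101, 81.3 and 103 against 576, 627 and 644 (log2 2.69, SE 0.26, limma adjusted p = 3.53e-05). Mybpc2, fast skeletal myosin-binding protein C, had 230, 124 and 171 against 523, 530 and 743 (log2 1.79). With Ryr1, these formed a set whose groups did not overlap. Tnnt1, slow troponin T, and Cacna1s, the skeletal calcium channel, rose by 0.88 and 0.50. Ckm, muscle creatine kinase, fell by 1.04 (21327, 20599 and 18765 against 10317, 8824 and 10424 counts). Myh4 and Actn3, genes of fast skeletal fibres, were below the filter, Myh4 with 0 to 1.46 counts in all 6 libraries, while the fast myosin Myh2 varied between libraries of each group as given above. The list's summed level, in which Ckm weighs most, was 20786 to 23173 in the plain and 13297 to 14917 in the activated hearts.

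Known MEF2 target genes moved in both directions. Of 26 tested, 5 rose and 6 fell, with a median of -0.11, which turned to 0.10 under quantile normalization and 0.04 under total-read scaling. The risers were Acta1, Nppa, Myoz1, Xirp1 and Xirp2. Xirp2, an actin-binding protein of the intercalated disc, had 20508, 18753 and 14553 counts against 33367, 30286 and 33762 (log2 0.87, SE 0.17, limma adjusted p = 0.00389). Xirp1 had 4769, 4130 and 4568 against 7875, 8568 and 5756 (log2 0.70), and Myoz1, a Z-disc protein of skeletal muscle, 4.44, 0 and 2.17 against 21.9, 27.9 and 15.1 (log2 3.09). In all 3 genes the groups were separate. Those that fell were the glucose transporter Slc2a4, Tnni3, Tnnt2, Ryr2, Ckm and Myoz2.

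In the sarcomere 0 of 13 thick filament genes were called by limma (median -0.17); at an unadjusted p under 0.05, 1 was higher and 1 lower, edgeR called 0, and DESeq2 called 1 up and 3 down. Near-identical reads can be shared between myosin heavy chain genes, so Myh6 and Myh7 levels are uncertain. Of 27 thin filament and Z-disc genes 6 rose and 6 fell, with a median of -0.02, or 0.11 under quantile normalization and 0.12 under total-read scaling. Tpm2, beta tropomyosin, had 181, 131 and 191 counts against 524, 686 and 645 (log2 1.89, SE 0.19, limma adjusted p = 4.7e-05). Tpm1, alpha tropomyosin, had 83864, 82860 and 71235 against 48283, 48904 and 46233 (log2 -0.73, SE 0.14, limma adjusted p = 0.00385). Neither overlapped between the groups, and the fall of Tpm1 was lost under quantile normalization (log2 -0.09, limma adjusted p = 0.291). Flnc, filamin C, a Z-disc crosslinker, rose by 0.65 (9385, 8786 and 8577 against 13152, 15885 and 13083 counts), and Pdlim3, an actinin-associated LIM protein, by 1.15. Tnni3, cardiac troponin I, fell by 0.49 (41270, 39627 and 36855 against 27401, 29860 and 26325 counts), Nebl, nebulette, by 0.62 and Myoz2, the cardiac calsarcin, by 0.52. Of 14 calcineurin and NFAT genes Rcan1 and Rcan3 rose and Myoz2 fell; the Rcan3 call (log2 0.41) was lost without activated heart 3 (adjusted p = 0.0543).

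The genes that return calcium to the sarcoplasmic reticulum and release it in heart muscle were lower in activated hearts. Atp2a2, the calcium pump SERCA2, had 193154, 204007 and 195527 counts in the plain hearts and 124288, 115933 and 117863 in the activated hearts, 1.66-fold lower (log2 -0.73, SE 0.15, limma adjusted p = 0.00494). Pln, phospholamban, the pump's inhibitor, had 83975, 88475 and 57402 against 35002, 34489 and 32150 (log2 -1.15, SE 0.18, limma adjusted p = 0.000775). Ryr2, the cardiac release channel, had 77868, 74625 and 81033 against 43016, 44139 and 42191 (log2 -0.85, SE 0.11, limma adjusted p = 0.00025). All activated values were below all plain values, and plain heart 3 was the lowest plain heart for Pln. Under quantile normalization the sign for Atp2a2 turned (0.16), so its direction rests on the scaling, and the call for Ryr2 was lost there (log2 -0.28, limma adjusted p = 0.101).

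Of 27 calcium handling genes 8 fell and 4 rose; the median was -0.07, or 0.16 under quantile normalization and 0.07 under total-read scaling. Hrc, which binds calcium beside the release channel, had 11237, 11259 and 11074 counts against 6250, 6324 and 5531 (log2 -0.89, SE 0.09, limma adjusted p = 5.14e-05). The calcium/calmodulin kinase genes split. Camk2a had 704, 648 and 752 against 390, 390 and 352 (log2 -0.89, SE 0.09, limma adjusted p = 3.53e-05), and Camk2b 150, 267 and 130 against 798, 689 and 734 (log2 2.09, SE 0.24, limma adjusted p = 9.71e-05). Camk2g was called up (log2 0.33, limma adjusted p = 0.0469), but the call was lost when any of 9 libraries was left out (adjusted p up to 0.152). Jph2, which holds the T-tubule to the reticulum, fell by 0.55 and the sodium-calcium exchanger Slc8a1 by 0.52, while S100a1, a calcium sensor that raises SERCA2 activity, rose by 0.51.

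Ion channel genes of the action potential fell more often than they rose for potassium, and moved both ways for sodium and calcium. Of 24 potassium channel genes 11 fell and 2 rose, with a median of -0.50. The list's median was -0.25 in TG_saline and -0.03 in WT_AAV hearts against the same plain hearts. Kcnh2, the channel of the rapid delayed rectifier, had 1648, 1421 and 2009 counts against 789, 809 and 801 (log2 -1.07, SE 0.13, limma adjusted p = 0.000122). Abcc9, the sulfonylurea receptor of the ATP-sensitive channel, had 10910, 12252 and 10043 against 5913, 6472 and 5778 (log2 -0.87, SE 0.09, limma adjusted p = 4.76e-05). For both, every activated heart lay below every plain heart, as for Kcnip2 and Kcnv2 above. Kcnd2 (-0.46) and Kcnd3 (-0.10), the pore subunits that Kcnip2 accompanies, did not pass the test. Kcnn3, a calcium-activated channel, rose by 2.41 (63.3, 38.9 and 62.9 against 198, 280 and 442 counts), and the inward rectifier Kcnj12 by 0.81.

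Of 24 sodium and calcium channel genes 6 rose and 7 fell; the median was -0.04, or 0.03 under quantile normalization and 0.10 under total-read scaling. Cacna1c, the L-type calcium channel, had 9395, 7792 and 11708 counts against 4770, 5909 and 5308 (log2 -0.84, SE 0.15, limma adjusted p = 0.00168). Scn4b, a sodium channel beta subunit, had 510, 662 and 409 against 2178, 1695 and 2297 (log2 1.98, SE 0.38, limma adjusted p = 0.00316). Cacna1c was thus lower and Scn4b higher, each without overlap. Scn4a, the skeletal sodium channel, fell by 1.66 and the T-type channel Cacna1g by 1.58, while Cacnb1, the beta subunit of the skeletal calcium channel, rose by 1.13 and Cacna1d by 1.10.

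At the intercalated disc, which joins heart muscle cells end to end, 8 of 16 genes fell and 1 rose (median -0.36). Against TG_saline 1 fell and 1 rose (median -0.15), and against WT_AAV 4 fell and 1 rose (median -0.25). In TG_saline the list's median was -0.15 against the plain hearts. Dsg2, a desmosomal cadherin, had 1841, 2154 and 2166 counts against 936, 910 and 724 (log2 -1.27, SE 0.12, limma adjusted p = 2.1e-05). Dsp, desmoplakin, had 42216, 43786 and 36764 against 25399, 29797 and 25965 (log2 -0.60, SE 0.12, limma adjusted p = 0.00321). Gja1, connexin 43, had 8301, 9308 and 4477 against 3356, 3634 and 2647 (log2 -1.14, SE 0.22, limma adjusted p = 0.00363). The groups were separate for all 3, plain heart 3 being lowest for Gja1, and Gja1 did not pass the test against the TG_saline hearts (limma adjusted p = 0.0594). Dsc2, the partner cadherin, fell by 0.73, and Vcl, vinculin, which links actin to the junction, rose by 0.41.

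Of 28 genes of adrenergic signalling 8 fell and 3 rose; the median was -0.08, or 0.02 under quantile normalization and 0.06 under total-read scaling. Adrb1, the main cardiac beta receptor, had 433, 409 and 415 counts against 242, 277 and 285 (log2 -0.65, SE 0.11, limma adjusted p = 0.00165). Adra1a, an alpha receptor, had 493, 776 and 671 against 284, 203 and 262 (log2 -1.36, SE 0.19, limma adjusted p = 0.00045). Pde1c, a cyclic nucleotide phosphodiesterase, had 2133, 2447 and 1647 against 645, 672 and 444 (log2 -1.83, SE 0.16, limma adjusted p = 1.13e-05). Receptors and phosphodiesterase were thus lower in every activated heart. Pde4a fell by 0.69, whereas the receptor kinase gene Adrbk2 rose by 0.91 and the adenylyl cyclases Adcy7 and Adcy5 by 0.71 and 0.51.

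Many genes of energy metabolism fell, most by less than 2-fold. The limma fit called 0 members of the fatty acid, tricarboxylic acid (TCA) cycle and respiratory chain lists as higher; at an unadjusted p under 0.05, and by DESeq2, 1 TCA cycle gene was higher, and edgeR called 0. Of 34 genes of fatty acid uptake and oxidation 18 fell (median -0.50); of 24 TCA cycle genes 11 fell (median -0.37); of 36 complex I genes 15 fell (median -0.34); and of 40 genes of complexes II to V 22 fell (median -0.38). In TG_saline hearts the medians of these lists against the same plain hearts were -0.15, -0.08, -0.05 and -0.06, and in WT_AAV hearts -0.01, -0.04, -0.05 and -0.07. Against TG_saline the activated hearts had 3, 6, 6 and 12 falls in these lists. Against WT_AAV they had 18, 12, 10 and 18, and 1 TCA rise. Over all tested genes the falls numbered 315 and 1062. With a term for Myl7 in the fit, the falls against plain hearts were 14, 9, 8 and 15 in these lists and 824 over all tested genes. The medians of the lists were then -0.50, -0.34, -0.32 and -0.37. The counts against plain hearts rested on few libraries. Without activated heart 3 the fatty acid count was 8 and the TCA count 6, and without plain heart 1 the TCA count was 7. The complex I count was 5, 9 and 24 without plain hearts 1, 2 and 3 and 7, 9 and 6 without activated hearts 1, 2 and 3, and that of complexes II to V 11 without plain heart 1 or activated heart 3 and 14 without activated heart 2. Under quantile normalization and total-read scaling the medians of all 4 lists stayed below 0, at -0.41 and -0.36, -0.20 and -0.22, -0.30 and -0.20, and -0.25 and -0.24 in that order. Ventricular muscle markers moved the same way (median -0.37 over 10, with 4 that fell and 1 that rose); under quantile normalization their median was -0.06, with 2 that fell and 3 that rose. Their part in these falls was not tested.

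Lpl, lipoprotein lipase, had 65451, 80352 and 73710 counts against 40954, 36533 and 35077 (log2 -0.96, SE 0.13, limma adjusted p = 0.000353). Etfb, which passes electrons from fatty acid oxidation to the chain, had 4265, 3809 and 4860 against 2310, 2408 and 2326 (log2 -0.87, SE 0.09, limma adjusted p = 5.09e-05). Ech1, an enoyl-CoA isomerase, had 11625, 11326 and 10896 against 6159, 5886 and 4953 (log2 -0.999). In all 3 the activated hearts lay below every plain heart. Slc27a1, a fatty acid transporter, fell by 1.06. Cd36 (-0.28), the main uptake protein, and Cpt1b (-0.37, limma adjusted p = 0.0609), which admits fatty acids to mitochondria, did not pass the test.

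In the TCA cycle, Ogdh, of the oxoglutarate dehydrogenase complex, had 28932, 29392 and 27866 counts against 20756, 19662 and 18780 (log2 -0.54), and Cs, citrate synthase, had 16085, 15937 and 12873 against 9784, 9523 and 8948 (log2 -0.66). Idh1 fell by 0.90 and Idh3b by 0.56. Among respiratory chain genes the muscle isoform Cox7a1 had 6056, 6310 and 4812 against 3418, 3295 and 3184 (log2 -0.79, SE 0.12, limma adjusted p = 0.000911), and Ndufs6, Ndufs3 and Ndufs7 fell by 0.57, 0.55 and 0.51. Atp5j, Atp5d and Sdha fell by 0.55, 0.49 and 0.49. The ATP synthase genes Atp5a1 (59452, 55865 and 49885 against 41745, 40849 and 38370 counts; log2 -0.45) and Atp5b (59976, 58038 and 54670 against 43583, 44411 and 41155; log2 -0.42) were called as well. Their calls were lost without plain heart 1 or any activated heart, and for Atp5a1 also without plain heart 2, with adjusted p-values up to 0.0941 and 0.0826, and under quantile normalization their signs turned (0.049 and 0.058). Of 39 mitochondrial ribosomal protein genes 8 fell (median -0.21), 4 without plain heart 1 or activated heart 2 and 5 without activated heart 1 or 3. Their median was -0.36 without plain heart 3, and -0.06 with 4 falls under total-read scaling. Of 27 cytosolic ribosomal protein genes limma called 0 (median -0.01), with 4 lower at an unadjusted p under 0.05 and 1 called lower by edgeR and by DESeq2; their reads can be shared with pseudogenes.

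Of 25 glycolysis and glucose uptake genes 8 fell and 3 rose (median -0.01), the falls numbering 5 without plain heart 1 or activated heart 3. Against TG_saline limma called 0 falls and 1 rise (median -0.11), and against WT_AAV 7 falls and 3 rises (median -0.01). Quantile normalization gave 6 falls and 6 rises and total-read scaling 6 falls and 8 rises. Hk2, hexokinase 2, had 7738, 7724 and 7713 counts against 4648, 4607 and 4494 (log2 -0.75, SE 0.10, limma adjusted p = 0.000311). Slc2a4, the insulin-responsive glucose transporter, had 6645, 5750 and 5327 against 4129, 4377 and 4078 (log2 -0.49). The groups were apart in both, and Hk2 was nearly constant within each. Pfkfb1, which sets fructose 2,6-bisphosphate, had 202, 301 and 325 against 51.1, 79.7 and 44.6 (log2 -2.24, SE 0.25, limma adjusted p = 7.38e-05). Its TG_saline mean of 94.7 was already lower than the plain hearts by the test, and the step from there to the activated hearts did not pass it (log2 -0.71, limma adjusted p = 0.116). Aldoc, the brain aldolase, rose by 3.09 from 2.22, 1.15 and 2.17 counts to 24.1, 19.9 and 24.7.

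Among 19 metabolic regulators 3 fell, Sirt3 (-0.50), Sirt1 (-0.46) and Esrrb (-0.34). None of these calls stood without plain heart 1. Sirt3 was also lost without plain heart 2 or activated heart 3 (adjusted p up to 0.0965), Sirt1 without plain heart 3 or activated heart 1 or 2 (up to 0.0966), and Esrrb without plain heart 3 or activated heart 1 or 3 (up to 0.141). Ppargc1a, the coactivator of mitochondrial genes, had 2360, 2087 and 3039 counts against 1670, 2181 and 1449, which overlap (log2 -0.50, limma adjusted p = 0.0722), and Ppara did not pass the test (log2 0.01). In phosphate transfer 3 of 13 genes fell (5 without plain heart 3) and 1 rose: Ckm and Ckmt2 (-0.66), the creatine kinases, and the carrier Slc25a4 (-0.35) fell, and Gamt, of creatine synthesis, rose by 1.19. The Slc25a4 call was lost when any of 9 libraries was left out (adjusted p up to 0.144), and its sign turned under quantile normalization (0.15). Of 11 NAD genes 2 rose and 3 fell. Nmrk2, the nicotinamide riboside kinase of stressed muscle, had 25.5, 27.5 and 17.4 against 81.7, 92.7 and 83.5 (log2 1.85), whereas Nampt, of the salvage route, had 3061, 3795 and 3504 against 2363, 2139 and 2001 (log2 -0.67).

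A share of the extracellular matrix and fibroblast genes rose, and the main fibrillar collagens were not called. Of 43 matrix genes 11 rose and 1 fell (median 0.31), the rises numbering 7 without activated heart 3. Of 17 fibroblast markers 7 rose (median 0.52). With a term for Myl7 in the fit, 8 matrix genes (median 0.28) and 5 fibroblast markers (median 0.38) rose. Against WT_AAV the activated hearts had 6 matrix rises (median 0.14) and 1 fibroblast rise (median 0.22). Against TG_saline they had 6 matrix rises (median 0.15) and 5 fibroblast rises (median 0.34). The fibroblast median was 0.21 in WT_AAV and 0.04 in TG_saline hearts against the plain hearts. The summed fibroblast marker level was 36006, 34895 and 40581 in the plain hearts and 49213, 50800 and 52159 in the activated hearts. Ltbp2, a matrix protein of the latent TGF-beta binding family, had 16.7, 46.9 and 30.4 counts against 222, 228 and 182 (log2 2.82, SE 0.31, limma adjusted p = 6.48e-05); its means were 103 in WT_AAV and 72.3 in TG_saline hearts. Col8a1, a short-chain collagen, had 500, 616 and 576 against 1362, 1217 and 1651 (log2 1.31, SE 0.11, limma adjusted p = 1.33e-05). Dcn, decorin, had 4677, 5906 and 4799 against 8024, 8236 and 7890 (log2 0.66). The groups were separate for these 3 genes. Mfap4, Mfap5, Timp2 and Serping1 rose by 1.31, 1.03, 0.69 and 0.56. Col1a1 had 1197, 902 and 1103 against 872, 836 and 1192 counts, overlapping (log2 -0.15, limma adjusted p = 0.695), and neither Col3a1 (-0.07) nor Postn (0.71, limma adjusted p = 0.0516) passed the test. Ltbp1 was called down (log2 -0.45), which was lost without plain heart 1 or activated heart 3 (adjusted p up to 0.0666).

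Among 16 TGF-beta and BMP ligands and inhibitors 5 rose and 2 fell. Fstl3, an activin inhibitor, had 31.1, 22.9 and 39.1 counts against 116, 117 and 142 (log2 2.00, SE 0.23, limma adjusted p = 0.0001), and Tgfb3 rose by 0.83. The rises numbered 2 without plain heart 3 or activated heart 1 or 3, and 3 without plain heart 1 or activated heart 2. In all 5 cases Bmp7 was lost (adjusted p up to 0.0894), and in all but the last Fstl1 (up to 0.105). The co-receptor Tgfbr3 fell by 0.48; the fall of Tgfb1 (log2 -0.47) was lost without plain heart 1, activated heart 1 or activated heart 3 (adjusted p up to 0.0883). Of 26 growth factor genes of heart muscle 6 fell and 2 rose (median -0.13, or 0.01 under total-read scaling). Angpt1, a ligand that steadies vessels, had 1018, 1111 and 927 against 171, 278 and 185 (log2 -2.30, SE 0.30, limma adjusted p = 0.000207), and Vegfb, which endothelium receives from heart muscle, fell by 0.50. Hbegf, an EGF receptor ligand, had 289, 215 and 185 against 442, 467 and 410 (log2 0.96). Igfbp5 fell by 0.85 and Fgf13, which binds sodium channels, by 0.61.

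Interferon response genes were higher by small amounts: 34 of 35 had a log2 change above 0 and 9 rose, with a median of 0.40. Over all tested genes 49.2% had a log2 change above 0. The list's median was 0.05 in TG_saline and -0.10 in WT_AAV hearts against the plain hearts. The count of 9 became 1 without activated heart 3, 4 without plain heart 1 or 2 and 5 without activated heart 2. With each library left out in turn the median stayed at 0.35 to 0.48. Against TG_saline the activated hearts had 1 rise in this list (median 0.44), and against WT_AAV 9 (median 0.56). Over all tested genes the rises in those comparisons numbered 492 and 1409. Ifit2 had 368, 334 and 307 counts against 579, 548 and 611 (log2 0.79, SE 0.17, limma adjusted p = 0.00563). Lgals3bp (0.82), Ifi35 (0.55) and Eif2ak2 (0.47), the kinase that senses double-stranded RNA, were called, and each lost its call without activated heart 3 (adjusted p up to 0.058, 0.0722 and 0.0593); Ifi35 also without plain heart 1 or 2. In antigen presentation 2 of 17 genes fell, H2-Ab1 (-0.88) and H2-Eb1 (-0.74), both lost without plain heart 1 or 2, TG_saline 3, or activated heart 1 or 3 (adjusted p up to 0.165 and 0.14), and H2-Ab1 also without WT_AAV 2. Of 13 cytokines and chemokines Cx3cl1 rose by 0.88 and 2 fell. Il15, a cytokine of lymphocytes that muscle also makes, had 376, 376 and 384 against 150, 125 and 125 (log2 -1.51, SE 0.13, limma adjusted p = 1.27e-05); Cxcl12 (-0.60) was lost without plain heart 1 or activated heart 2 (adjusted p up to 0.0596).

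Genes of the cellular stress lists are given beside the 18.9% called over all tested genes, and several of their counts changed with 1 library left out. In the unfolded protein response 6 of 21 genes rose and 1 fell, with 3 rises without plain heart 1 and 12 under total-read scaling; Sdf2l1 rose by 0.88, Pdia4 by 0.40 and Pdia6 by 0.37, while Hspa5, the central chaperone, was at 0.00. Of 29 ATF4 targets and tRNA synthetases 5 rose and 1 fell, with 3 rises without plain heart 2 or activated heart 3 and 13 under total-read scaling; the fall was not called with any 1 of the 6 libraries left out. Mthfd2, a mitochondrial folate enzyme, had 25.5, 14.9 and 18.5 counts against 81.0, 53.8 and 115 (log2 1.99, SE 0.32, limma adjusted p = 0.000964), separate in every library. Of 23 heat shock genes 5 rose and 2 fell, with 2 or 3 rises without any 1 of the 6 libraries compared and 9 without WT_AAV 1. Hspa1l, an HSP70 gene whose reads may be shared with close paralogs, had 67.7, 53.8 and 43.4 against 277, 266 and 221 (log2 2.21, SE 0.26, limma adjusted p = 0.0001), and Bag3, its cochaperone in muscle, rose by 0.46.

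Of 20 p53 response genes 3 rose and 1 fell; Phlda3 rose by 1.07, and the list had 1 rise without plain heart 1 or 2 or activated heart 1 or 3. In apoptosis 4 of 25 genes rose and 3 fell. Bad, which promotes cell death, had 163, 165 and 142 counts against 322, 330 and 368 (log2 1.11, SE 0.11, limma adjusted p = 3.03e-05), and Bak1 rose by 0.62, while Bcl2l11, which also promotes death, fell by 0.80 and the protective Mcl1 by 0.44. In activated hearts the list thus moved both ways, with 2 rises without activated heart 3. Among 19 genes of atrophy and proteolysis 3 rose, with 1 rise without plain heart 1 or 3 or activated heart 1 or 3 and 0 in the limma fit without activated heart 2, and Trim55, a ubiquitin ligase of the sarcomere, fell by 0.63.

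Output genes of the circadian clock were lower. Of 19 clock genes 8 fell and 2 rose (median -0.29, or -0.15 under total-read scaling). The rises numbered 0 in the limma fit without plain heart 1 or activated heart 1 or 2, 1 without plain heart 2 or TG_saline 3, and 3 without plain heart 3 or TG_saline 2. Dbp, a direct clock target, had 2428, 2116 and 1401 counts against 747, 561 and 900 (log2 -1.42, SE 0.23, limma adjusted p = 0.000979), and its relatives Hlf and Tef fell by 0.74 and 0.49. Nr1d2, a repressor of the clock, fell by 0.65. Arntl, the core activator, had 11.1, 22.9 and 19.5 against 57.6, 62.8 and 18.3, so activated heart 3 lay within the plain range (log2 1.20, limma adjusted p = 0.0721). The hour at which each heart was taken was not given in the sources used here. Of 22 immediate early genes 1, Ier2, was called, and fell by 0.82.

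Among 25 cardiac transcription factor genes 2 rose and 3 fell (5 without WT_AAV 1). Srf, the serum response factor, rose by 0.37 and Gata4 by 0.31, calls both lost without activated heart 2. Srf was lost as well without plain heart 1 or activated heart 3 (adjusted p up to 0.0803), and Gata4 without plain heart 2 or 3, activated heart 1 or TG_saline 3 (up to 0.153). Hopx, which restrains Srf, fell by 0.63 and Zfpm2, a GATA cofactor, by 0.46. In the cell cycle list of 33, Ccno, Ccnd2 and Ccnd3 rose and Cenpf and Cenpa fell. Ccnd2, cyclin D2, had 2788, 2319 and 2074 counts against 4693, 4020 and 4199 (log2 0.85, SE 0.13, limma adjusted p = 0.000762). Mki67, which marks dividing cells, did not pass the test (log2 -0.15).

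Of 30 genes of synapses and neurites 10 rose and 6 fell (median 0.24), with 7 rises without activated heart 2 and 4 falls without plain heart 3. Kndc1, B3gat1, Clstn3 and Itpka among those that rose, and Efnb3 and Lrrc4b among those that fell, have been given above. Ephb1, an ephrin receptor, had 81.1, 79.0 and 129 counts against 27.7, 35.9 and 36.6 (log2 -1.47, SE 0.23, limma adjusted p = 0.000859), and Syt7, a calcium sensor of vesicle release, fell by 0.79. Markers of nerve and Schwann cells did not move as a group: of 7 tested 1 rose (Uchl1) and 1 fell. The latter was Dbh, the enzyme of noradrenaline synthesis in sympathetic nerves, with 37.8, 24.0 and 41.2 against 9.48, 5.98 and 5.57 (log2 -2.14, SE 0.32, limma adjusted p = 0.000635). Npy, another sympathetic gene, was at 0 in these libraries.

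**Figure D4:**
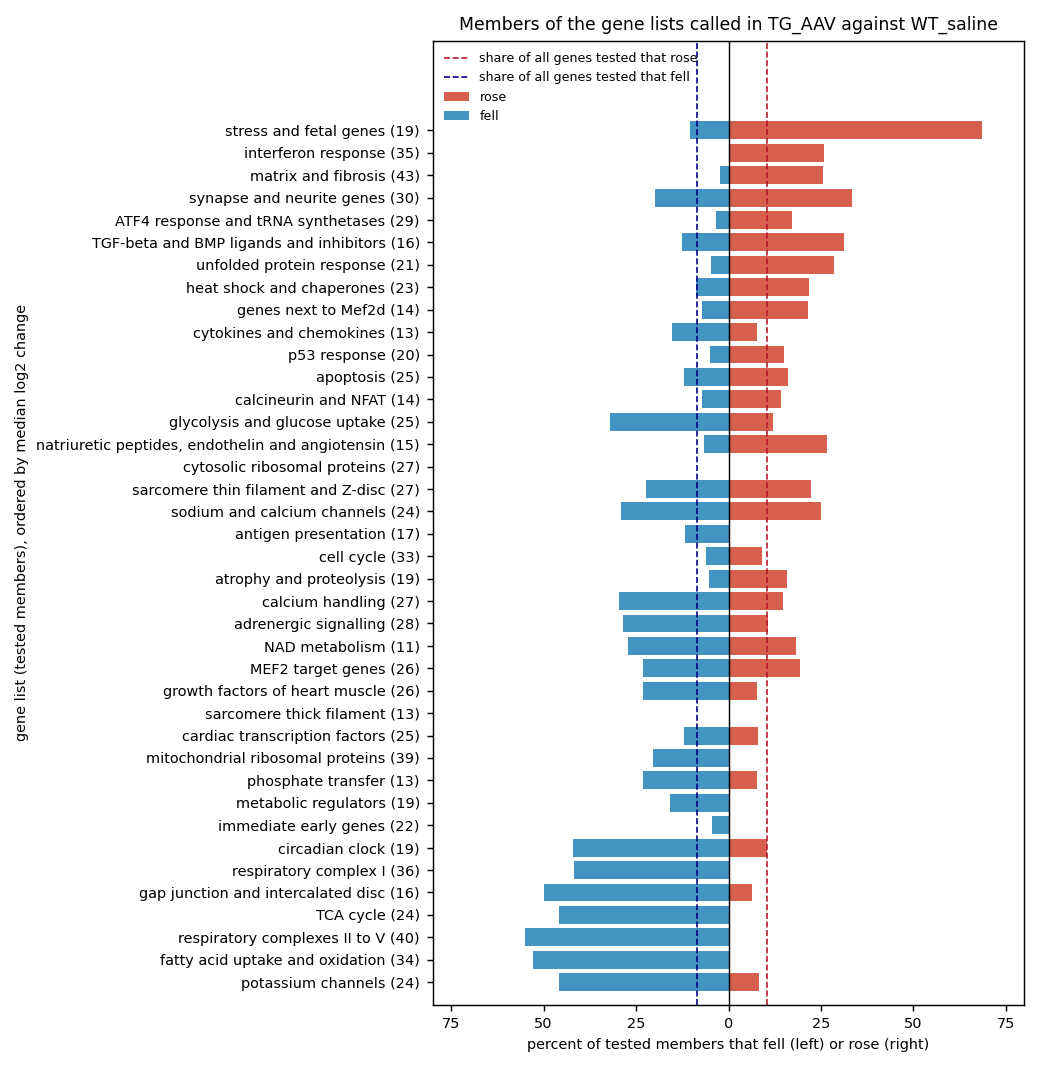
Share of tested members that rose (right) and fell (left), in percent, for each gene list with at least 10 tested members, ordered by median log2 change; dashed lines mark the shares over all tested genes (10.5% and 8.41%). Stress and fetal genes stand at one end (13 of 19 rose) and fatty acid, potassium channel and respiratory chain genes at the other (18 of 34, 11 of 24 and 22 of 40 fell).

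Other cell types the ventricle can hold showed few called markers. Of 17 endothelial markers 2 fell (median -0.27, or -0.15 without plain heart 3 and -0.14 without activated heart 3), with 4 falls without plain heart 1, 3 without WT_AAV 3, and 1 without TG_saline 2 or activated heart 3. Cdh5, the cadherin of endothelial junctions, fell by 0.53, and the fall of Vwf was lost without plain heart 3, TG_saline 2, or activated heart 1 or 3 (adjusted p up to 0.165). Their summed level was 27139 to 35506 in the plain and 25741 to 29440 in the activated hearts. Of 12 mural cell, 19 macrophage and 6 epicardial markers limma called 0, as did edgeR and DESeq2; 1 macrophage marker was lower at an unadjusted p under 0.05. The summed mural and macrophage levels overlapped between groups. Of 11 atrial markers 1 rose and 3 fell. Their median of 0.71 became -0.11 without activated heart 1, the library with high Myl7 among the 6 compared. The atrial gene Bmp10 was at 0. Thrsp, a lipogenic gene on the adipocyte list, had 120, 226 and 183 counts against 509, 502 and 572 (log2 1.62, SE 0.20, limma adjusted p = 0.000152), while Cidea fell by 0.54 (adjusted p up to 0.0642 without activated heart 1); only those 2 of 9 adipocyte genes passed the filter.

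The groups with only the vector or only the transgene were set beside these changes. Against the plain hearts the vector alone (WT_AAV) gave 1 called gene (0.00770%) and the transgene alone (TG_saline) 13 (0.10%). Against TG_saline the activated hearts differed in 807 genes (6.21%), and against WT_AAV in 2471 (19.0%). These comparisons share libraries, so their values are set side by side and not treated as independent. Of the 24 genes with the largest changes against plain hearts, 23 were also called against TG_saline and 24 against WT_AAV, and 0 by limma in TG_saline or WT_AAV against plain hearts. The exception was Gm10635, with a limma adjusted p of 0.109 against TG_saline. Of the 8 falls largest in counts (Atp2a2, Rn45s, Pln, Lpl, Ryr2, Tpm1, Atp5a1 and Atp5b), 3 were called against TG_saline and 7 against WT_AAV. Of the 8 rises largest in counts (Ankrd1, Xirp2, Gsn, Flnc, Acta1, Pam, Gpc4 and Dcn), 5 were called against each.

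For some genes TG_saline lay between the plain and activated hearts. Pln differed from TG_saline by -0.93 (limma adjusted p = 0.00746) and from plain hearts by -1.15; Ryr2 by -0.48 (limma adjusted p = 0.0231) and -0.85. Kcnip2 differed from TG_saline by -1.15 (limma adjusted p = 0.000122), and Cenpf by -2.54 (limma adjusted p = 0.000281). Kcnv2 in TG_saline differed from plain hearts by -1.83, which did not pass the test (limma adjusted p = 0.059), and the activated hearts differed from TG_saline by -1.42 (limma adjusted p = 0.0359). Hdac4 was as low in TG_saline as in activated hearts (log2 difference 0.11, limma adjusted p = 0.733), and TG_saline itself did not pass the test against plain hearts (log2 -0.66, limma adjusted p = 0.11). Mef2d differed from TG_saline by 1.28 (limma adjusted p = 1.65e-05). Gsn, gelsolin, an actin-severing protein with 16236, 15839 and 21837 counts in plain and 24933, 27139 and 25132 in activated hearts, lost its call without plain heart 1 or 2 or any activated heart (adjusted p up to 0.0841). Rn45s, a ribosomal RNA precursor and no messenger RNA, had 125191, 90210 and 218675 against 51995, 56772 and 57079 and lost its call without plain heart 1 or 3 or any activated heart (adjusted p up to 0.117). Pam, which amidates peptide hormones, had 8437, 7629 and 7345 against 11827, 12887 and 12499 (log2 0.67).

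**Figure D5:**
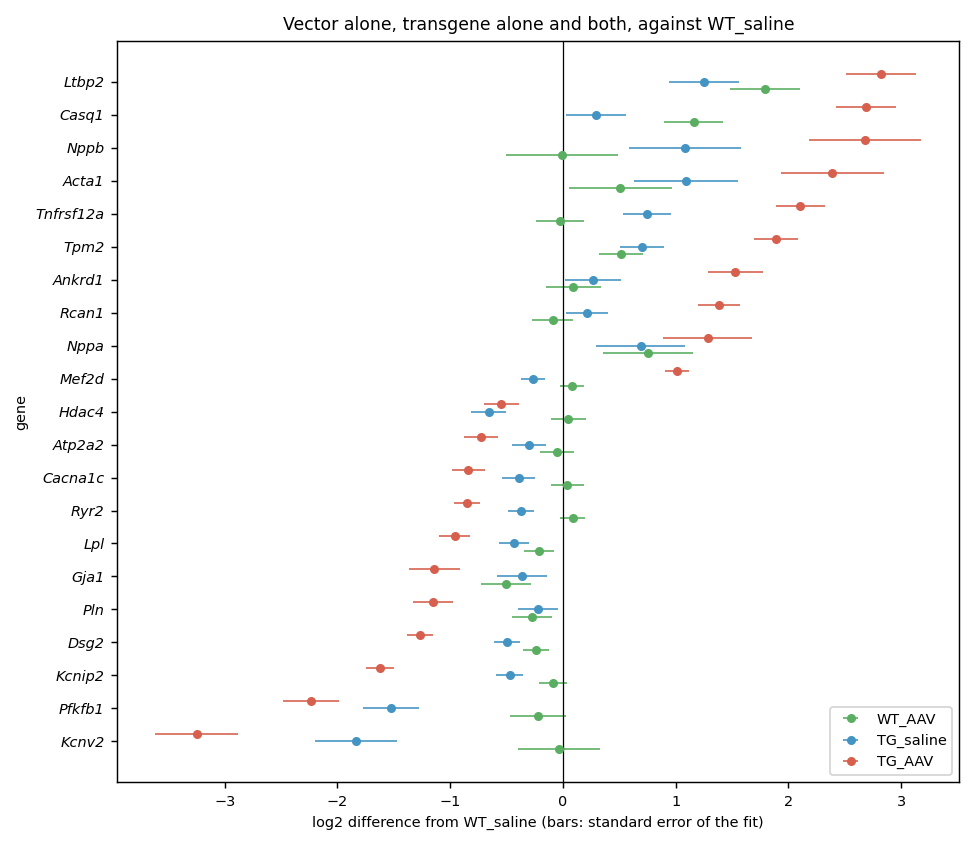
Log2 difference from the plain hearts (x axis, bars ± SE from limma, 3 libraries a group) of WT_AAV, TG_saline and TG_AAV for 21 genes. The TG_AAV point lies farthest from 0 for every gene shown but Hdac4, and TG_saline lies between 0 and TG_AAV for Acta1 (1.09 against 2.39) and Kcnv2 (-1.83 against -3.25).

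The filter left out genes just under a mean of 10 counts. The tested genes nearest to it were Mir126a (10.005), Zc3h12d (10.01) and Snora17 (10.04), and the nearest not tested were Matk (9.99), Catip (9.99) and Oser1 (9.98).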

How the data were processed

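RNA from mouse ventricles was sequenced in 12 libraries, and the authors deposited 1 table of normalized counts, a signal unit, for 24390 gene symbols. A numbered heart in the text stands for the library of that number. Per the submitters' processing notes the tools were Bowtie2 2.0 and DESeq2 and the build mm9; the annotation, counter and strand setting were not given in the sources used here. Each value divided by its library's step was whole within 0.01 for 100% of values, so whole reads were recovered and used for depths and for the count tests among the alternatives. Of the symbols, 5583 were at 0 in every library and 27 had turned into dates (21 of them tested).

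For the comparison, log2(normalized count + 1) was fitted with limma 3.58.1 (trend, R 4.3.3) over all 12 libraries as 4 group means, for genes with a mean of at least 10 over the 6 libraries compared. P-values were Benjamini-Hochberg adjusted, with a threshold of 0.05. Log2 differences, and the counts of changes over 2-fold and 4-fold, are on that scale, which understates the change of low genes. Folds given for single genes are ratios of the mean normalized counts, or of reads where so stated. Alternatives used edgeR 4.0.16 and DESeq2 1.42.0. Simulated data served to test the fit. Genes were named by rule: the 12 largest log2 changes each way among called genes with separate groups, the 8 largest count differences each way, the smallest p-values, and up to 4 called members each way of each list by p; a few genes the rule picks are not reported here, and uncalled list members were named for their known role. Separate groups were a condition for the genes of largest change, largest count difference and smallest p, so their separation is no further support. The members and lists were chosen with earlier results of these data known. The labels do not say how the 3 samples of a group were kept apart, so the p-values reflect sample-to-sample spread, some of which may be technical. Intervals on reads cover counting error only, at 95%.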

Additional observations from a re-analysis of the deposited data

How the results depend on the processing

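Mef2d rose under all 30 alternatives. Leaving out each library in turn gave 1509 to 2827 called genes, 872 to 1547 that rose and 637 to 1280 that fell, with 4994 to 6800 outside the other group's range; the lowest counts of called, risen and fallen genes came without activated heart 3. Fewer samples, and for total-read scaling another reference, are built into these alternatives; other causes were not tested. Alternatives chosen after seeing the data were total-read scaling (2727 rose, 619 fell), thinned reads (2334 called), and plain heart 3 with activated heart 1 left out together (1556 called, 844 rose, 712 fell, 7833 outside the range). Other fits called 2503 genes (edgeR), 2725 (DESeq2), 2394 (sex term), 1913 (Myl7 term) and 2286 (6 libraries only). Under quantile normalization Slc25a4 (0.15), Atp5b (0.058), Atp5a1 (0.049) and Atp2a2 (0.16) turned sign, and 7 further named calls were lost, among them Ryr2, Tpm1, Tnnt2 and Nnt; total-read scaling lost 19. Whether replicate numbers pair the samples was not settled. Same-numbered deviations from the group means correlated at -0.0372, 0.0828 and 0.0783, and differently numbered ones at -0.187 to 0.139. With 3 libraries a group these correlations are not independent of each other, so they cannot decide it. A fit with the replicate block called 2726 genes, beside 2453 in the main fit. It shared 2384 genes with the main fit and lost 0 of 227 named calls. Without activated heart 3 limma lost 42 of the 227. Low reads limit genes near the filter, and 3 libraries a group limit small changes.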

Other observations

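The neighbours of the target gene were looked at beside it. Of 24 genes next to Mef2d 14 were tested; 3 rose and 1 fell, with a median log2 change of 0.13. Lmna, which encodes the lamins of the nuclear envelope, had 1365, 1187 and 1524 counts in the plain hearts and 2001, 2236 and 2127 in the activated hearts, without overlap (log2 0.65, SE 0.09, limma adjusted p = 0.000339). Slc25a44, a mitochondrial carrier of branched-chain amino acids, had 339, 334 and 360 against 486, 470 and 494 (log2 0.49, SE 0.10, limma adjusted p = 0.00356). The calls for Apoa1bp (log2 0.28) and Nes (log2 -0.33), the gene of the filament protein nestin, were lost when any of several libraries was left out, among them activated heart 2 (limma adjusted p = 0.126 for Apoa1bp) and plain heart 1 (limma adjusted p = 0.133 for Nes).

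The share of genes called varied with level. Among the 1406 tested genes with a mean under 30 counts 6.19% rose and 4.48% fell, and among the 1462 with a mean of 1000 to 3000 counts 13.5% rose and 12.7% fell. Across 12501 genes (96.2% of those tested) the log2 change had a Spearman rank correlation of -0.0229 with transcript length and 0.0416 with GC content; genes are not independent replicates.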
